A study of Mus musculus with 12 samples.

Results

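The protein components of the cytosolic ribosome were examined in C2C12 myotubes treated with the mitochondrial uncoupler BAM15. Genes were taken by symbol, as every row of the count table whose mouse symbol has the form Rpl or Rps followed by a number and at most 1 letter, together with Rplp0, Rplp1, Rplp2 and Rpsa. This rule gave 78 of the 15113 genes in the table, 47 of the large subunit and 31 of the small subunit, and it used no measured value. C2C12 cells are immortalized mouse myoblasts, which form multinucleated myotubes after a change from fetal bovine serum to a low concentration of horse serum. The BAM15 group received 20 µM BAM15 dissolved in DMSO for 16 h and the vehicle group received DMSO for the same 16 h, with 6 libraries in each group. BAM15 is a protonophore that carries protons across the inner mitochondrial membrane, so that respiration runs without being tied to ATP synthesis. All libraries came from 1 cell line, and the labels do not say whether they came from separate cultures, so p-values measure only the spread between these libraries, which may be technical.

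A cytosolic ribosome is built from ribosomal RNA and a set of ribosomal proteins, most of them present as a single copy. The small subunit holds the mRNA and reads the codons, and the large subunit joins the amino acids and lets the new peptide out through a tunnel. The mRNAs of ribosomal proteins and of several elongation factors typically begin with a 5′ terminal oligopyrimidine (TOP) tract, a C followed by further pyrimidines, through which mTORC1, LARP1 and the 4E-BPs adjust their translation. Ribosomal protein genes are also known for their many processed pseudogenes, which are copies of the spliced mRNA elsewhere in the genome.

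To show what such starts look like among these genes, the annotated start sites were read from RefSeq (build GRCm38.p6). A start was counted as TOP when a run of at least 5 pyrimidines (C or T, read on the strand of the gene) opened with a C at the first transcribed base. Of the 58 ribosomal protein genes with a start in the table, 13 (22.4%) had such a start, compared with 813 of 27025 genes overall (3.01%). In the lines that follow, 10 bases before the start and 20 bases from it on are written 5′ to 3′, and capitals mark the pyrimidine run. The first 4 are genes with a TOP start, chosen because their values are described further on, and the last 3 are the 2 genes with the largest called increases and the gene with the second highest counts, whose annotated starts do not meet the definition.
Rps6, chr4:86857348-86857377, minus strand: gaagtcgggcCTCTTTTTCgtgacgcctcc
Rpl15, chr14:18270967-18270996, minus strand: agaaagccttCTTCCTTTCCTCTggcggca
Rps18, chr17:33955646-33955675, minus strand: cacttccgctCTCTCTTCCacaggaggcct
Rps27, chr3:90213629-90213658, minus strand: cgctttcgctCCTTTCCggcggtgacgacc
Rpl12, chr2:32961702-32961731, plus strand: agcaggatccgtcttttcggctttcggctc
Rpl4, chr9:64173377-64173406, plus strand: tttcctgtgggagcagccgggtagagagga
Rps12, chr10:23787190-23787219, minus strand: tcatgcggccaccgccggccttttcccctg
A missing run says only that these letters are not at the annotated base. Whether the cells used that base cannot be read from 3′ libraries.

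RNA was measured by QuantSeq, a method that starts cDNA at the poly(A) tail and therefore tags the 3′ end of each transcript, and counts do not scale with transcript length. Library totals ranged from 13983725 to 18866728 counts, and values are given as CPM, the usual normalized read count, with library sizes scaled by TMM factors. The myotube markers, 10 of 10 of which were present, summed to 25769 to 33424 CPM in the BAM15 libraries and 28113 to 30894 CPM in the vehicle libraries. The 10 myoblast markers summed to 867 to 984 CPM with BAM15 and 1104 to 1148 CPM with vehicle, and the 6 markers of proliferating cells to 143 to 161 CPM and 341 to 390 CPM. None of these markers was at 0. Of the myotube markers 2 were called higher and 3 lower with BAM15, of the myoblast markers 1 and 4, and of the markers of proliferating cells 0 and 6. In bulk RNA, more RNA of a kind per cell and a shift in the mix of cells cannot be told apart, and the part that undifferentiated or cycling cells had in the results was not tested. Within the BAM15 group, libraries numbered 4 to 6 stood apart from those numbered 1 to 3 across the transcriptome, without a batch named in the labels, and results are therefore also given for the 2 sets of numbers.

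Ribosomal protein mRNAs took up a larger share of every BAM15 library than of any vehicle library. The share of library counts was 6.20%, 6.42% and 7.08% (lowest, median and highest) in the BAM15 libraries and 4.72%, 4.90% and 5.26% in the vehicle libraries. The means were 6.58% ± 0.376 and 4.95% ± 0.211 (SD, n = 6 each), a ratio of 1.33. BAM15 libraries 5 and 6 were the highest, and the groups did not overlap.

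**Figure D1:**
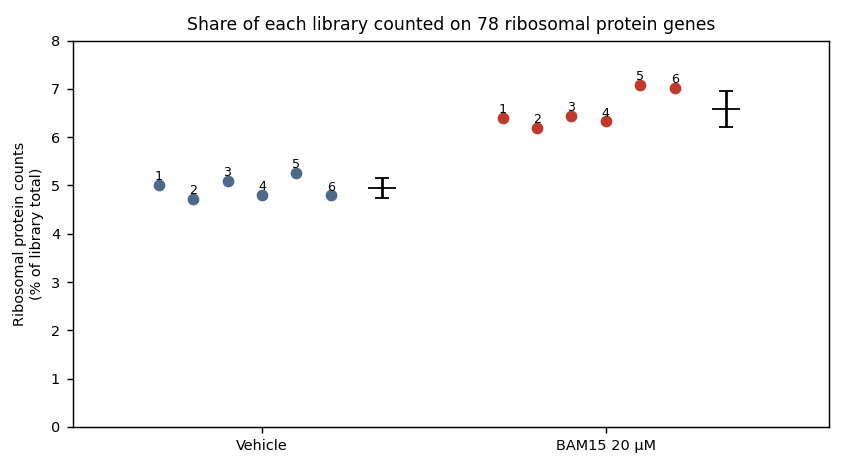
Percentage of each library's counts that fell on the 78 ribosomal protein genes, with 1 point per library (its number above it) and the mean ± SD of 6 libraries beside each group. The vehicle libraries lie between 4.72% and 5.26% and the BAM15 libraries between 6.20% and 7.08%.

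Gene by gene, the increase was small and shared. Of the 77 genes with enough counts to test, 76 had a positive log2 fold change, and 59 were called higher with BAM15 by edgeR's quasi-likelihood test at an adjusted p below 0.01, a call that 22.0% of all 12730 tested genes received. None was called lower, whereas 20.3% of all genes were. The median log2 fold change of the tested genes was 0.47 (1.39-fold), with quartiles of 0.40 and 0.53, beside a median of 0.02 and quartiles of -0.29 and 0.36 for all tested genes. In 52 genes every BAM15 library lay above every vehicle library, a pattern found in 17.1% of all tested genes.

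Both subunits contributed called genes. Of the 46 tested genes of the large subunit 35 were called higher, with a median log2 fold change of 0.47, and of the 31 of the small subunit 24 were called higher, with a median of 0.48. Among the 59 called genes, 56 had log2 fold changes between 0.3 and 0.65, and the full range ran from 0.23 to 0.90. The largest increases were those of Rpl12, Rpl4, Rpl30, Rps27 and Rpl13a. No gene passed the study's 3 thresholds together (adjusted p below 0.01, mean normalized count above 50 and more than 2-fold change), which 7.28% of all genes passed in either direction. At an unadjusted p below 0.05, edgeR's test gave 67 of the 77 genes (58.7% of all genes), 0 of them lower with BAM15. DESeq2's Wald test called 61 higher and 0 lower (20.9% and 19.5% of the genes it tested), and likewise placed 0 past the 3 thresholds.

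**Figure D2:**
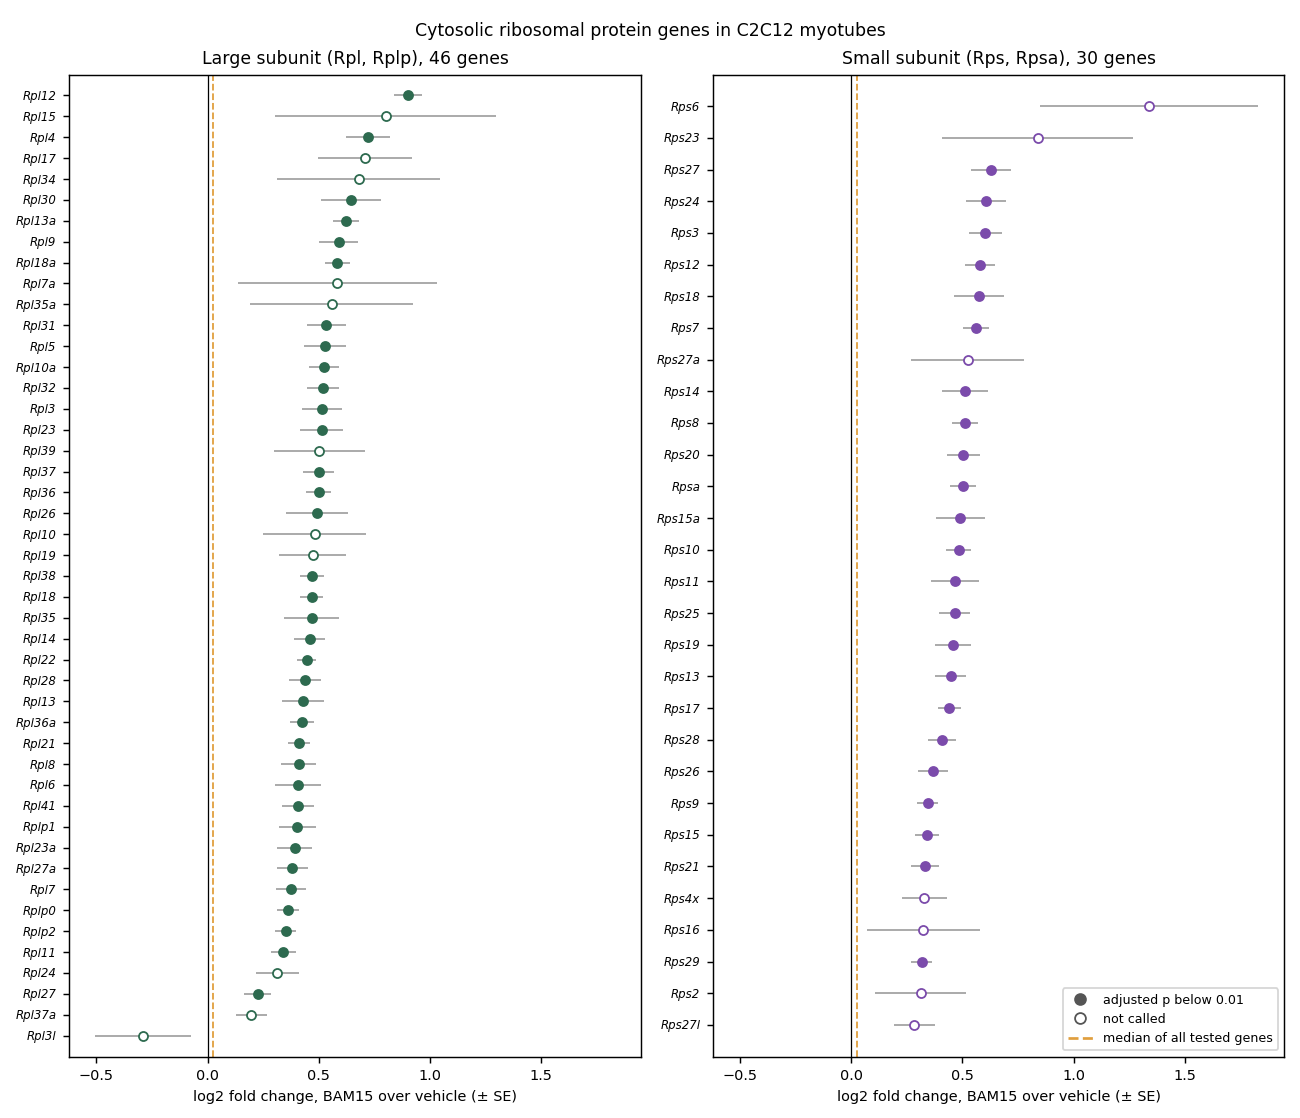
Log2 fold change of BAM15 over vehicle (± SE) for 76 of the 77 tested ribosomal protein genes, split by subunit and sorted by size. Filled points passed an adjusted p of 0.01 in edgeR's test, open points did not, and the dashed line is the median of all tested genes (0.02); most points lie between 0.3 and 0.65, and the points with the widest bars are open.

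The stalk of the large subunit, which recruits the elongation factors, showed both the largest and some of the smaller called increases. Rpl12, which sits at the base of the stalk (ENSMUSG00000038900, GRCm38 chr2:32961559-32965345), measured 1116, 1194 and 1311 CPM with BAM15 and 597, 641 and 706 CPM with vehicle (lowest, median and highest of 6 libraries). Its groups lay far apart, and its log2 fold change of 0.90 ± 0.061 (SE) had an adjusted p of 1.01e-08, the lowest of all 77 genes in edgeR's test. Rplp0, the scaffold that holds the stalk proteins, ranged from 810 to 931 CPM with BAM15 and from 636 to 703 CPM with vehicle, a log2 fold change of 0.36 ± 0.050. The stalk proteins Rplp1 and Rplp2 changed by 0.40 ± 0.084 and 0.35 ± 0.049 on the log2 scale. Thus 4 of 4 genes of the stalk were called, beside 59 of all 77 ribosomal protein genes and 22.0% of all tested genes. Rpl12 alone among the 4 exceeded the median of the ribosomal protein genes.

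Proteins of the peptide exit tunnel were led by Rpl4, a long protein that reaches into the tunnel wall. Rpl4 (ENSMUSG00000032399, GRCm38 chr9:64173375-64178666) measured 1509, 1763 and 2329 CPM with BAM15 and 986, 1144 and 1204 CPM with vehicle. The groups did not overlap, BAM15 libraries 5 and 6 were the highest, and the log2 fold change was 0.72 ± 0.098 (edgeR adjusted p = 1.75e-05). Of the 8 tunnel genes listed 6 were called higher, with a list median of 0.50, beside 59 of all 77 ribosomal protein genes and 22.0% of all tested genes. Rpl31, Rpl26, Rpl38, Rpl35 and Rpl23a, which surround the tunnel exit, had log2 fold changes of 0.53, 0.49, 0.47, 0.47 and 0.39. The call of Rpl26 was lost in 10 of 23 alternative settings (edgeR adjusted p up to 0.0200), among them without BAM15 library 1, 2, 3 or 5 or without vehicle library 1, 4, 5 or 6. The call of Rpl35 was lost in 9 of 23 (adjusted p up to 0.133), among them without BAM15 library 1, 2 or 5 or without vehicle library 1, 3 or 4. Rpl17 and Rpl39, the other proteins of the tunnel wall, had log2 fold changes of 0.71 ± 0.211 and 0.50 ± 0.204 and were not called (edgeR adjusted p = 0.0126 and 0.0542). They gained a call in 6 and 1 of the 23 settings. Rpl5 and Rpl11, which bind the 5S ribosomal RNA and can also bind Mdm2, the ubiquitin ligase of p53, were both called, at 0.53 ± 0.094 and 0.34 ± 0.056.

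On the small subunit, Rps14, Rpsa, Rps28 and Rps26, which lie at the mRNA exit side and platform, were called at log2 fold changes of 0.51, 0.50, 0.41 and 0.37. Of the 5 genes on a list headed mRNA entry and decoding, Rps3, a wall of the entry channel, Rps12 and Rps15 were called at 0.60, 0.58 and 0.34. For Rps12, no place at the entry channel or decoding centre is implied. Rps2, which also lines the entry channel, and Rps23, which reaches into the decoding centre, were not called, at 0.31 ± 0.205 and 0.84 ± 0.428.

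In the vehicle libraries the highest mean counts belonged to Rpl37, Rps12 and Rps26. Rpl37 measured 3764, 4179 and 4502 CPM with BAM15 and 2742, 2911 and 3207 CPM with vehicle, and the groups did not overlap. Its log2 fold change was 0.50 ± 0.070 (edgeR adjusted p = 2.51e-05). Rps12 and Rps26 changed by 0.58 ± 0.066 and 0.37 ± 0.067 on the log2 scale, also without overlap. These are counts of 3′ tags and not levels per length. Over the 69 tested genes at or above a vehicle mean of 100 CPM 57 were called, and of the 8 below it 2 were, Rpl10a and Rpl26, whose call depended on single libraries as given above.

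Genes that are often used as references in quantitative PCR took part in the increase. Of the 6 listed, Rpl13a, Rps18, Rpl32 and Rplp0 were called higher at log2 fold changes of 0.62, 0.57, 0.52 and 0.36. Rpl13a ranged from 1027 to 1211 CPM with BAM15 and from 686 to 796 CPM with vehicle. Rpl19 and Rps16 were not called, at 0.47 ± 0.151 (adjusted p = 0.0167) and 0.32 ± 0.254 (adjusted p = 0.308). Among the other genes chosen for a description of their own, Rps27, Rps7, Rpl10a, Rpl3, Rps20, Rps25, Rps19 and Rpl22 were called, with log2 fold changes from 0.45 (Rpl22) to 0.63 (Rps27).

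The tissue-restricted or inducible paralogues within the rule, Rpl3l and Rps27l, were not called over all libraries. Rpl3l, a form of Rpl3 made in striated muscle, was counted at 6 to 14 reads per library, at 0.414 to 0.779 CPM with BAM15 and 0.625 to 0.896 CPM with vehicle. Its log2 fold change of -0.29 ± 0.216 was the single negative value (edgeR adjusted p = 0.339), and the groups overlapped, while its common counterpart Rpl3 was called at 0.51 ± 0.088. Rps27l, a paralogue of Rps27 that p53 can induce, ranged from 134 to 210 CPM with BAM15 and from 129 to 137 CPM with vehicle, a log2 fold change of 0.28 ± 0.092 (edgeR adjusted p = 0.0173). It was 0.07 ± 0.077 in library numbers 1 to 3 and 0.47 ± 0.077 in numbers 4 to 6, where it was called (edgeR adjusted p = 5.32e-05). Rpl29 was counted at 0 to 16 reads per library and was not tested.

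**Figure D3:**
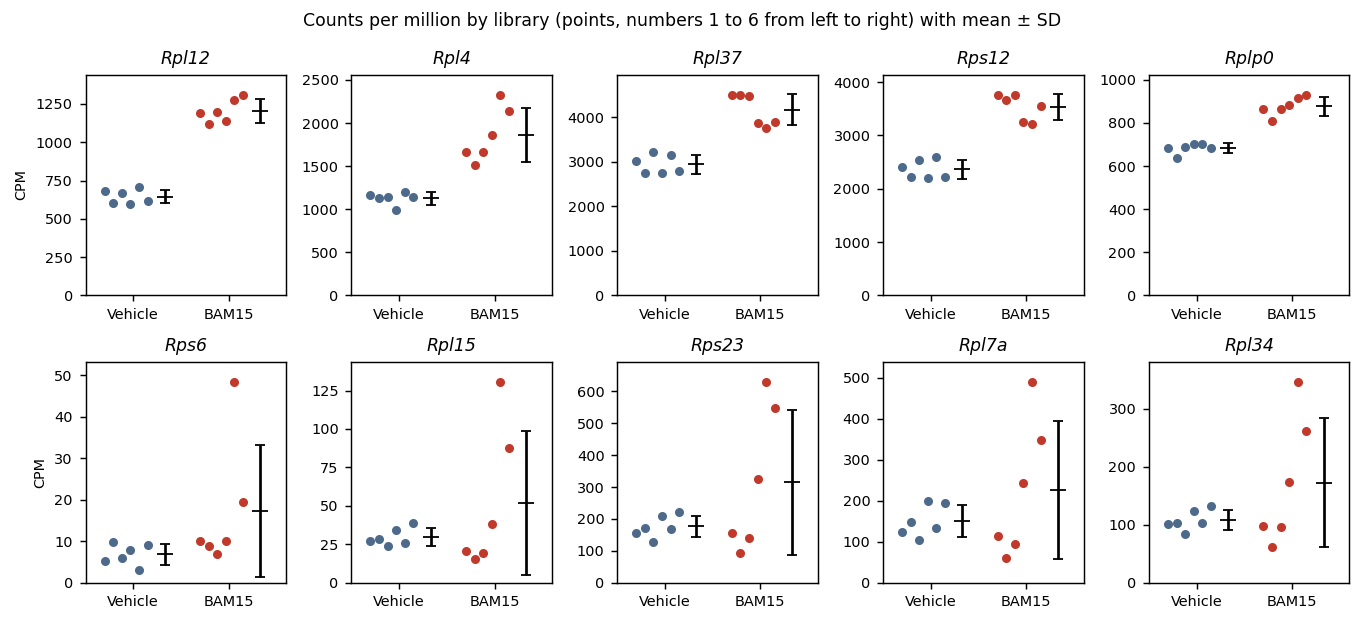
CPM in every library for 10 ribosomal protein genes, with the vehicle libraries on the left and the BAM15 libraries on the right of each panel (numbers 1 to 6 from left to right) and the mean ± SD of 6 libraries. In the upper row every BAM15 library lies above every vehicle library, and in the lower row BAM15 libraries 1 to 3 lie among or below the vehicle libraries, apart from Rps6 in library 1 (10.1 against at most 9.88 CPM), while number 5 is the highest.

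In 12 of the 18 genes without a call, the SD of log2 CPM over the BAM15 libraries exceeded 0.5, a limit set after the values were seen, and it ran from 0.54 to 1.26 beside a median of 0.17 over the tested genes. These 12 were Rpl7a, Rpl10, Rpl15, Rpl17, Rpl34, Rpl35a, Rpl39, Rps2, Rps6, Rps16, Rps23 and Rps27a, and they included every tested gene above that limit. Of the 65 genes at or under it 59 were called, and the other 6 were Rpl3l, Rpl19, Rpl24, Rpl37a, Rps4x and Rps27l. The test weighs a change against the spread between libraries, so these counts follow in part from the sorting. Because the 12 were picked by their spread, their values are given as a description without a test of the group.

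The 12 variable genes followed the same libraries. BAM15 library 5 was the highest in 11 of them, BAM15 library 2 was the lowest BAM15 library in 11, and BAM15 libraries 4 to 6 all exceeded libraries 1 to 3 in 11. The order was not confined to these 12 genes. Library 5 was the highest BAM15 library in 38 of the 77 tested genes, with 11 of the 12 among them. The share over all tested genes is not given, so nothing particular to ribosomal proteins can be read from this count. Of the 29 genes called higher in BAM15 libraries 4 to 6 than in 1 to 3, 11 were among the 12, which were picked by their spread over these same libraries. In 10 of the 12 the mean of BAM15 libraries 1 to 3 was below the vehicle mean. The vehicle libraries also had a common order, with number 3 the lowest in 10 genes and numbers 4 and 6 above the other 4 in 10 genes. Rps23 measured 155, 94.0, 141, 326, 629 and 546 CPM in BAM15 libraries 1 to 6 and 157, 173, 129, 209, 168 and 223 CPM in vehicle libraries 1 to 6. Rpl7a (ENSMUSG00000062647) measured 115, 61.5, 95.3, 244, 490 and 348 CPM with BAM15 and 124, 148, 104, 200, 133 and 195 CPM with vehicle. Rpl15, whose start is printed above, measured 20.5, 15.6, 19.6, 38.0, 131 and 87.6 CPM with BAM15 and 27.2, 28.6, 24.0, 34.5, 25.7 and 39.0 CPM with vehicle. In all 3 genes BAM15 libraries 1 to 3 lay within or under the vehicle range and libraries 5 and 6 far above it.

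Rps6, the ribosomal protein that S6 kinases phosphorylate downstream of mTORC1, belonged to the same set. It measured 10.1, 8.82, 7.01, 10.0, 48.4 and 19.5 CPM in BAM15 libraries 1 to 6 and 5.26, 9.88, 5.99, 7.88, 3.05 and 9.09 CPM in vehicle libraries 1 to 6. Its log2 fold change of 1.34 ± 0.490 was the largest in size of all 77 genes, but the groups overlapped and the adjusted p was 0.0355 by edgeR. Without BAM15 library 5 the log2 fold change was 0.69 (edgeR adjusted p = 0.0837).

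**Figure D4:**
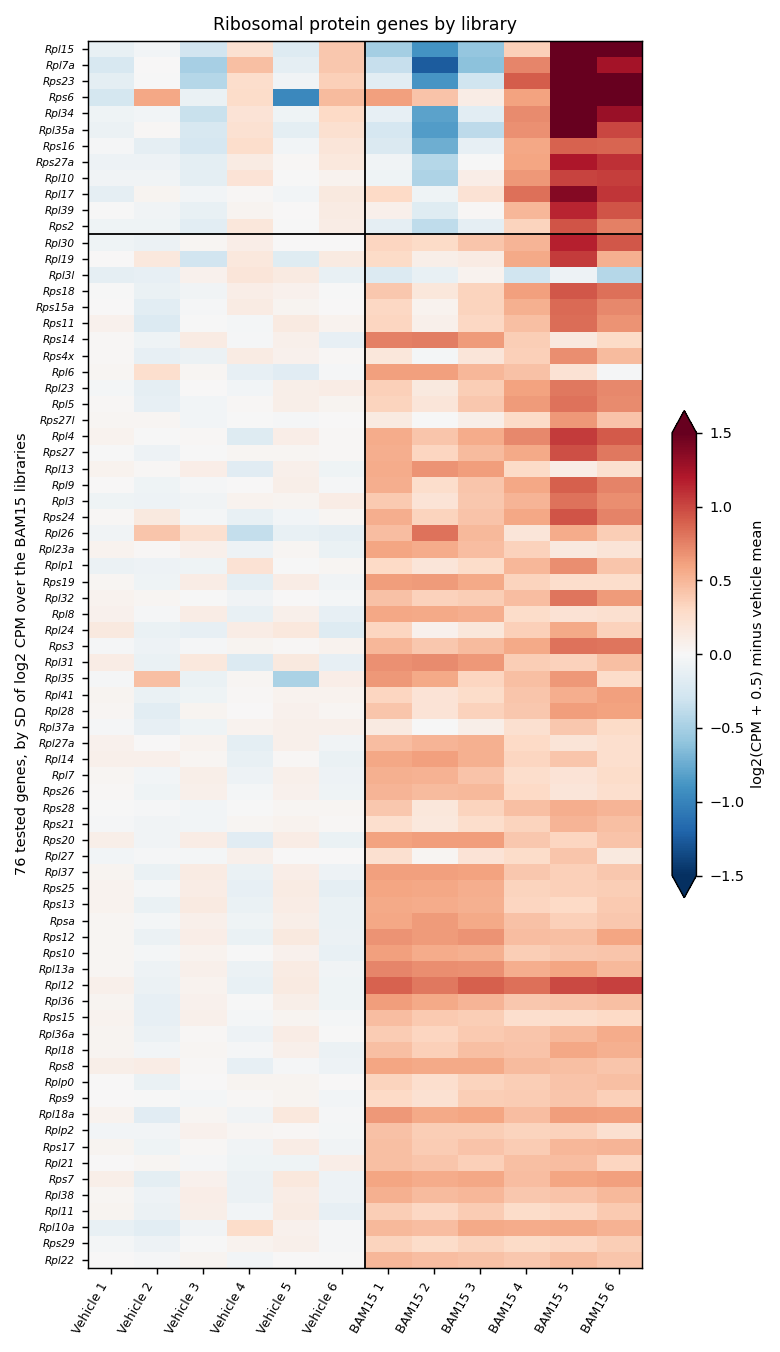
Heat map of 76 of the 77 tested genes (rows) in the 12 libraries (columns), coloured by log2(CPM + 0.5) minus the vehicle mean of the gene, on a scale that saturates at 1.5 in either direction. Rows are sorted by the SD of log2 CPM over the BAM15 libraries, and the 12 genes above the horizontal line are those over 0.5; below it nearly all BAM15 cells are above the vehicle mean.

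Split by library number, the increase was present in both sets. In numbers 1 to 3, 54 genes were called higher and 0 lower (20.0% and 19.4% of all genes), with a median log2 fold change of 0.40. In numbers 4 to 6, 72 were called higher and 0 lower (20.5% and 20.1% of all genes), with a median of 0.48. The same 54 genes were called in both sets, and all 54 were among the 65 with the smaller spread. For those 65 the medians were 0.42 and 0.44, whereas for the 12 variable genes the median was -0.15 in numbers 1 to 3 and 1.04 in numbers 4 to 6. None of the 12 was called in numbers 1 to 3, and 9 were in numbers 4 to 6. The 12 were picked by a spread that a gap between these sets widens, so their medians and calls by set are a description only. The values by set come from 1 edgeR fit to all 12 libraries, and the calls differed in separate fits to each set. With numbers 4 to 6 alone, 10 genes lost the call they had over all libraries and 9 gained one. With numbers 1 to 3 alone, 3 genes lost it, and Rpl15 was called lower, at -0.52. In the fit to all 12 libraries, 9 of the 12 variable genes had a negative log2 fold change in numbers 1 to 3. Whether these genes rose, and by how much, therefore rests on which libraries are taken.

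The difference between the 2 sets was tested as an interaction. It was called for 0 of the 77 genes and for 0 of all genes in edgeR's test at an adjusted p below 0.01. At an unadjusted p below 0.05 it held for 34 ribosomal protein genes (26.0% of all genes), and their lowest adjusted p was 0.0442. DESeq2 was not run for this difference or within a group. Within the BAM15 group alone, 29 ribosomal protein genes were called higher and 11 lower in libraries 4 to 6 than in 1 to 3. The shares of all genes were 13.5% and 10.7%. Within the vehicle group 0 of the 77 and 0 of all genes were called. In edgeR's test 5 of the 77 had an unadjusted p below 0.05 there, and the share of all genes is not given.

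The 11 genes that were lower in BAM15 libraries 4 to 6 had positive log2 fold changes over vehicle in both sets of numbers. They included Rps14, Rpl13, Rpl6, Rps19, Rpl8 and Rpl14, named after their values were seen. Rps14, of the platform, measured 3541, 3585, 3259, 2718, 2324 and 2563 CPM in BAM15 libraries 1 to 6, beside 1925 to 2277 CPM with vehicle. Its log2 fold change was 0.70 in numbers 1 to 3 and 0.29 in numbers 4 to 6. Rpl12, in contrast, had 0.84 and 0.96, and Rps29 0.35 and 0.28. At the other side Rpl4 had 0.49 and 0.92.

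Shared sequence limits what a count on one of these genes means. Of the 78 genes, 71 had at least 1 window of 50 bases within the last 400 bases of an annotated transcript that also occurs in another gene (GENCODE M21, GRCm38), and the median share of such windows was 47.6%. Whether reads that fit several genes were dropped or split is not given in the sources used here, so the level of such a gene is uncertain. The 7 tested genes with no shared window included Rpl4, Rpl12, Rpl37 and Rpl3l. Of the 7, 6 were called higher, with a median log2 fold change of 0.50. Of the 35 genes with at least 50% of windows shared 25 were called (median 0.49), and of the 42 under 50% 34 were called (median 0.46).

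The 12 variable genes had a median of 65.8% of windows shared, with a median of 17 other genes, and a median vehicle level of 163 CPM. The 65 others had medians of 44.6%, 7 genes and 645 CPM. For Rpl10 every window was shared, with 14 other genes, for Rps6 88.0% and for Rpl7a 86.0%, but for Rps16 only 13.96%, although those windows occur in 85 other genes. The part of shared sequence in the spread of these genes was not tested. Of 109 genes named as ribosomal protein pseudogenes, 64 could be tested, and 15 were called higher and 0 lower, with a median log2 fold change of 0.44. The share called higher was near the 22.0% of all tested genes. Rpl17-ps5, Rps23-ps2 and Rpl18-ps1 had the lowest p-values, with log2 fold changes of 0.66, 0.60 and 0.56, and their reads cannot be told apart from those of the parent genes where sequence is shared.

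Genes were also read by their annotated start. Of the 13 genes with a TOP start 10 were called higher (median log2 fold change 0.48), and of the 45 with another annotated start 32 were called (median 0.47). Of all 77 ribosomal protein genes 59 were called, and of all tested genes 22.0%. An annotated start without a run can lie inside a pyrimidine tract, as that of Rpl7a does. The 45 are therefore not a set without TOP mRNAs, and the 2 counts do not separate the classes. Rps18 and Rps27, printed above with their pyrimidine runs, changed by 0.57 ± 0.111 and 0.63 ± 0.090 on the log2 scale. Rpl12 and Rpl4, printed without one, had the largest called values. By position the 78 genes were scattered over 19 chromosomes, with at most 14 on 1 (chromosome 7).

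Of 9 ribosomal protein genes whose symbols fall outside the rule, 6 were called higher and 0 lower, beside 22.0% and 20.3% of all tested genes, with a median log2 fold change of 0.47. Rpl9-ps6 is among the 9 and also counts among the pseudogenes. Rack1, a scaffold on the small subunit, ranged from 1731 to 1987 CPM with BAM15 and from 1152 to 1297 CPM with vehicle (log2 fold change 0.61 ± 0.056). Fau, which encodes Rps30 fused to a ubiquitin-like protein, and Rps3a1 changed by 0.41 and 0.49 on the log2 scale. Rpl22l1, a paralogue of Rpl22, was called at 0.48 ± 0.139 (edgeR adjusted p = 0.00900), although its groups overlapped. Rpl36al, Rps27rt and Rpl7l1, a nucleolar relative of Rpl7, were not called, at 0.52 ± 0.263, 0.35 ± 0.173 and -0.08 ± 0.064.

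Most of the listed genes that assemble the ribosome were also called higher. Of 72 tested assembly factors 52 were called higher and 0 lower (22.0% and 20.3% of all tested genes), with a median log2 fold change of 0.54. Gnl3 (nucleostemin), Nop58, a core protein of box C/D small nucleolar particles, and Tcof1, the nucleolar protein treacle, had the lowest p-values, at 1.12 ± 0.054, 0.73 ± 0.049 and 0.83 ± 0.062. Of 15 genes of RNA polymerase I and its factors 5 were called higher and 0 lower, beside 22.0% and 20.3% of all tested genes, with a median of 0.17. The 5 were Taf1d, Taf1a, Polr1c, Twistnb and Ubtf, and Taf1d had the largest value, 1.11 ± 0.111. Of 12 chaperones and transport receptors of ribosomal proteins 6 were called higher and 1 lower (median 0.37), beside 22.0% and 20.3% of all tested genes. Xpo1, the exportin of both pre-subunits, rose by 0.68 on the log2 scale, Ipo5 rose by 0.56 and Pdcd2, a chaperone of Rps2, by 0.98, while the importin Ipo9 fell by 0.26.

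Of 12 genes of elongation and of the wider TOP class 7 were called higher and 0 lower, beside 22.0% and 20.3% of all tested genes, with a median log2 fold change of 0.46. Pabpc4 and Pabpc1, the poly(A)-binding proteins, rose by 0.82 and 0.76, and the elongation factor subunit Eef1b2 rose by 0.53. Tpt1 ranged from 263 to 1008 CPM with BAM15 and from 382 to 549 CPM with vehicle, overlapped and was not called (0.37 ± 0.294).

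The host genes of small nucleolar RNAs had the largest list median. Transcripts such as Gas5 carry a TOP start and no conserved protein, and are known to be degraded by nonsense-mediated decay when they are translated. Of 8 host genes 6 were called higher and 0 lower, beside 22.0% and 20.3% of all tested genes, with a list median log2 fold change of 2.06. All 6 passed the 3 thresholds, which 7.28% of all genes passed. Among the 6, Snhg6 overlapped between groups, at 1.73 to 48.0 CPM with BAM15 and 1.13 to 2.57 CPM with vehicle. Its log2 fold change was 0.73 in library numbers 1 to 3 and 3.61 in numbers 4 to 6. Snhg12 ranged from 160 to 191 CPM with BAM15 and from 17.5 to 24.9 CPM with vehicle (log2 fold change 3.06 ± 0.086). Snhg5 and Snhg1 changed by 2.12 and 1.88 on the log2 scale, and neither overlapped between groups. The list was written with earlier results of these data known, and its difference from the ribosomal protein genes was not tested.

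Regulators of TOP translation and of stalled ribosomes had a median near that of all tested genes. Of 21 tested genes 7 were called higher and 2 lower, beside 22.0% and 20.3% of all tested genes, with a median log2 fold change of 0.08 (0.02 for all). Eif4ebp1, which encodes the translation repressor 4E-BP1, ranged from 619 to 708 CPM with BAM15 and from 177 to 204 CPM with vehicle, a log2 fold change of 1.81 ± 0.056. Zfp598, the ubiquitin ligase that marks collided ribosomes, and Mdm2 rose by 1.12 and 0.36 on the log2 scale. Rps6kb1, the S6 kinase, and Rptor, the mTORC1 subunit raptor, fell by 0.62 and 0.47. Larp1, the TOP-binding repressor, rose by 0.61. Over all 8 lists of genes outside the rule, pseudogenes included, 212 genes were tested, and 103 were called higher and 3 lower by edgeR's test. At an unadjusted p below 0.05 edgeR's test gave 5 lower genes, and DESeq2 called 5 lower.

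**Figure D5:**
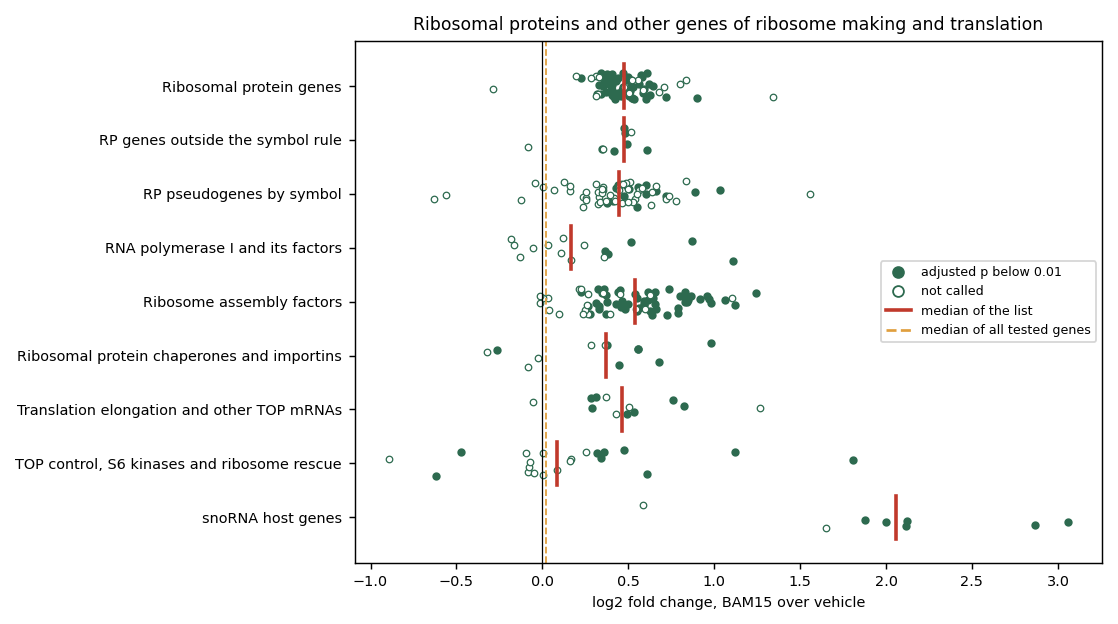
Log2 fold change of BAM15 over vehicle for the tested genes of 9 lists, 1 point per gene (filled: edgeR adjusted p below 0.01), with the median of each list as a vertical bar and the median of all tested genes as a dashed line; points are spread vertically for legibility. Medians are 0.47 for the ribosomal protein genes, 0.54 for assembly factors, 0.17 for RNA polymerase I and 2.06 for hosts of small nucleolar RNAs.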

How the data were processed

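RNA of C2C12 myotubes was sequenced by the authors from QuantSeq 3′ libraries, 6 per condition. The deposited counts are raw read numbers for each Ensembl identifier. The authors also deposited a normalized signal made with DESeq2 (version 1.22.2 per the labels), which served here only for gene symbols. The labels name GRCm38 and the study's methods name BlueBee software for alignment of forward reads, while its aligner, the annotation and the strand setting of counting are not given in the sources used here. A further 11 columns of other samples were not used. Symbols missing for 2293 identifiers were filled from GENCODE M21 where possible (2260).

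Counts were tested in R 4.3.3 with edgeR 4.0.16 (filterByExpr, TMM, robust quasi-likelihood, condition as the only term) and Benjamini-Hochberg adjustment over 12730 genes, and a call required an adjusted p below 0.01. TMM factors ranged from 0.932 to 1.04. The SE is the size of the log2 fold change divided by the square root of F. DESeq2 1.42.0 was an alternative. Libraries of the same condition all differed beyond counting noise (chi-square per gene at least 4.96).

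The ribosomal protein genes, the lists and the split by library number were chosen with earlier results of these data known. Named genes are the 5 largest increases and decreases among called genes, the 3 highest in vehicle, the genes of the role groups, the untested gene and, for other lists, up to 3 genes with the lowest p in each direction. Genes named outside this rule were chosen after their values were seen. The sample records give passages 2 to 5 and reads of 50 bp, whereas the methods differ on both. The values of 1 gene are not reported here.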

Additional observations from a re-analysis of the deposited data

Results flagged for a closer look

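A library was marked when its gap to the nearest library of its own group exceeded 0.625 of that group's range (Dixon's limit for 6 values). Of 236 groups of values 8 were marked, and chance marks about 1 group in 20. Among the ribosomal protein genes, the highest BAM15 value of Rps6 came from replicate 5, at 48.4 CPM. The lowest vehicle values of Rpl28 and Rplp0 were those of vehicle replicate 2, at 194 and 636 CPM. Vehicle replicate 4 was the lowest for Rpl4, at 986 CPM, and the highest for Rplp1, at 745 CPM. Among the other listed genes, Gnl3 was highest in BAM15 replicate 4 at 295 CPM, Ckm (muscle creatine kinase) was highest in vehicle replicate 4 at 324 CPM, and Top2a (topoisomerase 2 alpha, made in cycling cells) was lowest in vehicle replicate 5 at 166 CPM.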

How the results depend on the processing

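The number of ribosomal protein genes called higher stayed between 54 and 66 of 77 under DESeq2, 3 other scalings, 2 other filters, an adjusted p of 0.05, both blocks and either set of library numbers, and their median log2 fold change between 0.39 and 0.48. Leaving out 1 library at a time gave 56 to 63 calls and medians from 0.44 to 0.49, with 0 called lower and 0 past the 3 thresholds each time. Scaling from the other genes alone, an alternative chosen after seeing the data, gave 59. With library numbers 1 to 3 alone the median was 0.39 and 1 gene was called lower, Rpl15 at -0.52. The direction turned there for Rpl15 and for 8 uncalled genes, Rpl7a (-0.47), Rpl35a (-0.37), Rps23 (-0.24), Rps16 (-0.21), Rpl34 (-0.19), Rps2 (-0.12), Rps27a (-0.054) and Rpl10 (-0.044), and the cause was not tested. With numbers 4 to 6 alone 1 gene passed the 3 thresholds, Rpl17. The difference between the 2 sets of numbers, called for 0 genes, was called for 6 ribosomal protein genes at an adjusted p below 0.05. That threshold was added after seeing the data. The 6 were Rps14 and, from the genes picked by their spread, Rpl10, Rpl17, Rpl39, Rps2 and Rps27a. The share of all genes at that threshold is not given, so nothing particular to ribosomal proteins can be read from the count. Among the genes with no shared 3′ window, 7 in number, 6 were called. Besides Rpl26 and Rpl35, Rpl27 and Rpl6 lost their calls most often, in 11 and 5 of 23 settings. Some genes without a call gained one, Rpl17 in 6 settings, Rpl19 in 5, Rps4x in 4 and Rpl24 and Rps27l in 3 each. Without the 100 highest other genes in the denominator, the difference in share was 2.30 in place of 1.63 percentage points. The ratio of the mean shares, BAM15 over vehicle, was 1.33 either way. The labels do not say what a library number marks. The correlation of deviations between same-numbered libraries ran from -0.08 to 0.31, and 2 of 6 libraries correlated best with their own number, so pairing was not assumed. The replicate block gave 61 calls and a median of 0.45. A change in a gene counted at a few reads, such as Rpl29, was not detectable at this depth.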

Other observations

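Several genes that are not ribosomal proteins but belong to translation also varied widely among the BAM15 libraries and were picked after their values were seen. Btf3, a subunit of the nascent polypeptide-associated complex, ranged from 0.621 to 4.39 CPM with BAM15 and from 0.427 to 0.961 CPM with vehicle (log2 fold change 1.27 ± 0.462, edgeR adjusted p = 0.0314). Its partner Naca ranged from 265 to 582 CPM and from 251 to 327 CPM (0.51 ± 0.168, adjusted p = 0.0209). Snhg8 ranged from 5.37 to 120 CPM with BAM15 and from 8.37 to 18.3 CPM with vehicle (1.65 ± 0.625, adjusted p = 0.0411). Rpl36al, an intronless paralogue of Rpl36a, ranged from 21.3 to 71.6 CPM and from 23.9 to 33.5 CPM (0.52 ± 0.263, adjusted p = 0.116). The groups overlapped in all 4 genes, and none was called.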
